A study of Schizosaccharomyces pombe with 4 samples.

Results

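The left subtelomere of chromosome 1 of the fission yeast Schizosaccharomyces pombe was followed from the outermost probe of the tiling array to 100 kb inward. Its members were all genomic probes whose name gave chromosome 1 and a position under 100 kb, which made 324 of the 41551 genomic probes on the array. Positions below are distances in kb from the first probe, and whether that probe lies at the physical chromosome end was not stated in the sources used here.

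Trimethylation of histone H3 at lysine 9 (H3K9me3) was measured by chromatin immunoprecipitation on an array of 60-base probes. The strains were IRD1, IRD2, IRD3 and WT, in logarithmic growth and fixed with paraformaldehyde. All 4 sample titles also carry the tag REIID. The labels spell out neither IRD nor REIID and name no allele, so the strains are called by these names only. Each strain had 1 array, so none of the differences has a replicate check, and no p-value was computed. The 4 arrays lay on 1 slide and were read in 1 scan. In the labels of IRD1 and IRD3 the genotype and antibody entries were exchanged, and the strains were therefore taken from the titles.

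H3K9me3 is the histone mark of constitutive heterochromatin in fission yeast. It is laid down by the methyltransferase Clr4 and bound by chromodomain proteins of the HP1 family such as Swi6, and Clr4 also binds the mark it makes, which lets methylation spread along the chromosome. The ends of chromosomes 1 and 2 carry long stretches of near-identical DNA with genes for RecQ-type helicases (the tlh genes) that are kept silent under this mark. Further inward lies subtelomeric chromatin that has been described as condensed, poor in several histone marks and dependent on the shugoshin protein Sgo2.

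In the RefSeq assembly ASM294v3 the outermost annotated gene on this arm is tlh1, a RecQ-type helicase gene. Further inward that assembly lists pfl6 (a flocculin family gene), plb4 (a phospholipase B family gene) and fex1 (a fluoride exporter gene). The build behind the array was not named in the sources used here. A comparison of input signal with the GC content of ASM294v3 matched best at a shift of -955 bp over the whole region and at 9620 bp over the outer 40 kb. No single offset fitted, so no probe below is assigned to a gene and no sequence is shown.

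Probes were spaced 300 bp apart, and 10 of the 334 positions had no probe, among them stretches near 16, 21 and 30 kb. The names of 145 of the 324 probes end in f or m, letters that the sources used here do not explain. Such names made up 80.4% of the probes in the outer 50 kb (127 of 158), 10.8% in the next 50 kb (18 of 166) and 3.77% of all other genomic probes on the array. In ASM294v3, 141 of 167 stretches of 60 bases taken every 300 bases over the outer 50 kb had an exact second copy in the genome, against 11 of 167 over the next 50 kb. The outer 50 kb is thus repeated DNA in that assembly, most often shared with chromosome 2. A signal at such a probe can come from more than 1 place, and how much of it came from elsewhere was not tested.

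The value used is log2 of immunoprecipitated (red, Cy5) over input (green, Cy3) processed signal, centred on the median of all genomic probes of the same array. It is called the ratio below, and 0 is the level of a typical probe of the genome. A difference is a strain's ratio minus that of WT at the same probe. Ratios were had for 305 probes in IRD1, 322 in IRD2, 301 in IRD3 and 322 in WT, and the others were marked as outliers by the scanner software. No probe of the region was too dim or saturated in either channel. Apart from isolated peaks, which were kept in, no domain stood out at 42 to 100 kb. Differences from WT there had an SD over probes of 0.28 for IRD1, 0.29 for IRD2 and 0.25 for IRD3. These SDs give the scatter of single probes between a pair of arrays and are not a replicate error.

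All 4 strains had the same overall layout. The ratio was highest over the outermost 20 kb, stayed above 3 in most of the next 16 kb, dropped at a border between 36.3 and 36.6 kb, and lay below 0 over most of the inner 40 kb. The 3 IRD strains departed most from WT at 2 places. H3K9me3 was higher in each of them over 21.9 to 28.2 kb, where WT had a dip, and again over 36.6 to 39.9 kb, just past the border. Smaller differences of the same sign in the IRD strains lay at narrow peaks, higher than WT at 40.2 to 41.1 kb and lower at 57.3 to 57.9 kb. Both peaks were picked after their values were seen. At 57.3 to 57.9 kb the differences of IRD2 and IRD3 were within the scatter of single probes. IRD2 was also lower over the outermost 10 kb.

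**Figure D1:**
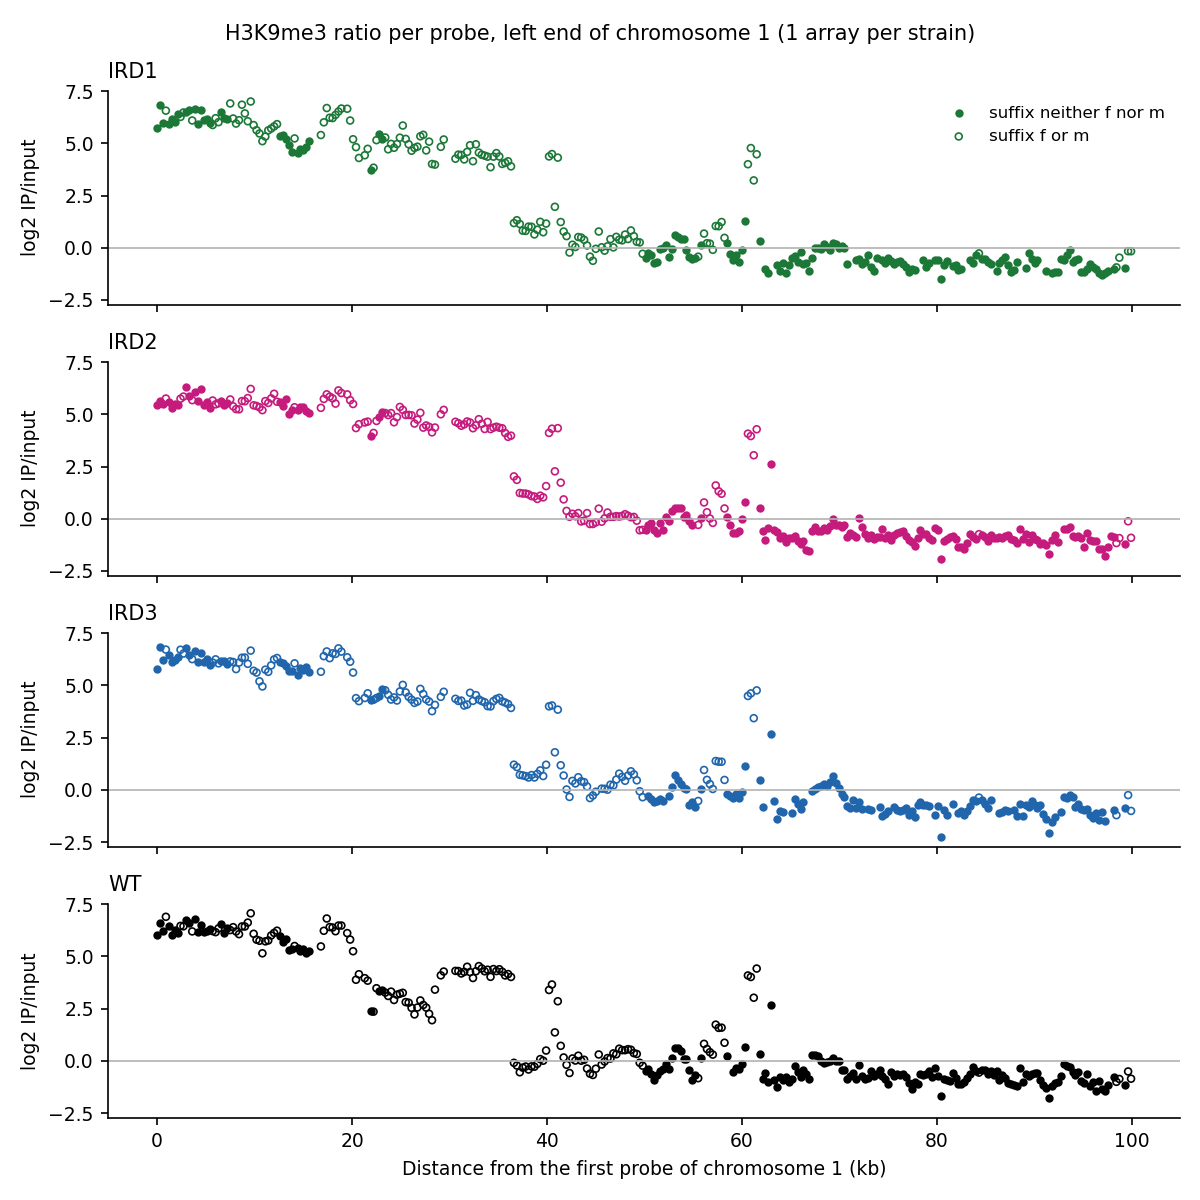
H3K9me3 ratio (log2 of immunoprecipitated over input signal, vertical axis) of each probe against the distance from the first probe of chromosome 1 in kb, 1 panel per strain in the order IRD1, IRD2, IRD3, WT. Open circles are probes with a name ending in f or m and filled circles the others. In WT the plateau sags between 20 and 30 kb and drops to about 0 past 36.3 kb, while the IRD panels show no such sag and hold a shelf near 1 between 36.6 and 39.9 kb.

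At the outer end the mark was at its maximum. Over 0 to 10 kb the median ratio was 6.19 in IRD1 (quartiles over probes 6.03 and 6.50), 5.62 in IRD2 (5.45 and 5.75), 6.21 in IRD3 (6.10 and 6.47) and 6.32 in WT (6.20 and 6.50), with 34 probes in each. The window of 1.5 kb starting at 3.0 kb was the highest of the region in IRD1 (6.49), IRD2 (5.91) and WT (6.62), while in IRD3 (6.46) the windows starting at 18 kb (6.58) and 0 kb (6.48) were higher. The probe at 9.6 kb, the highest of this zone in IRD1 and WT, read 7.01 in IRD1, 6.22 in IRD2, 6.67 in IRD3 and 7.07 in WT.

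IRD2 was the strain that stood apart there. Its median difference from WT over these 34 probes was -0.74, and no probe was above WT. IRD1 differed by -0.12 with 11 of 34 probes above WT, and IRD3 by -0.09 with 12 of 34. In IRD2 both channels moved. The input was 0.33 higher than in WT on the log2 scale, with 32 of 34 probes higher, and the immunoprecipitated signal was 0.34 lower, with none of 34 higher. With loess normalization the IRD2 difference grew to -2.62.

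High probes outside the region were compared in the same way. Over the genomic probes elsewhere whose ratio in WT was at least 5.5, the median difference was -0.09 for IRD1 (268 probes), -0.53 for IRD2 (267 probes) and -0.06 for IRD3 (268 probes). These probes lie mainly on the 3 chromosomes and the mating-type contig. They were picked for a high value in WT, which by itself favours differences below 0 in every strain. At 0 to 10 kb from the right end of chromosome 1 the median difference was 0.03 for IRD1, -0.33 for IRD2 and 0.08 for IRD3. In that zone of chromosome 2, where WT was lower, IRD2 lay above WT by 1.67 at the left end and 0.34 at the right end. A reading of the highest ratios on the IRD2 array that is low as a whole and a lower level at this end cannot be told apart with 1 array.

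From 10 to 20 kb the strains crossed one another. The median ratio was 5.48 in IRD1, 5.55 in IRD2, 5.96 in IRD3 and 5.81 in WT over 29 probes. The clearest split lay at 12.6 to 15.3 kb, where 9 of the 10 probes had names without f or m. There IRD1 ranged between 4.56 and 5.38, IRD2 between 5.04 and 5.76, IRD3 between 5.49 and 6.12 and WT between 5.15 and 5.98. All 10 probes were below WT in IRD1, with a median difference of -0.55, and all 10 were above WT in IRD3, with a median difference of 0.38. In IRD2 the median difference was -0.16, with 2 of 10 probes above WT. The stretch was picked after its values were seen, which favours such one-sided counts.

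Input also moved at these 10 probes in IRD3. It was 0.58 higher than in WT on the log2 scale, or 1.5 times the WT signal, with 10 of 10 probes higher, and the immunoprecipitated signal was 1.01 higher. In IRD1 the input differed by 0.07 and the immunoprecipitated signal by -0.48. In IRD2 those values were 0.05 and -0.04. With loess normalization within each array the IRD3 difference at these probes turned to -0.80.

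**Figure D2:**
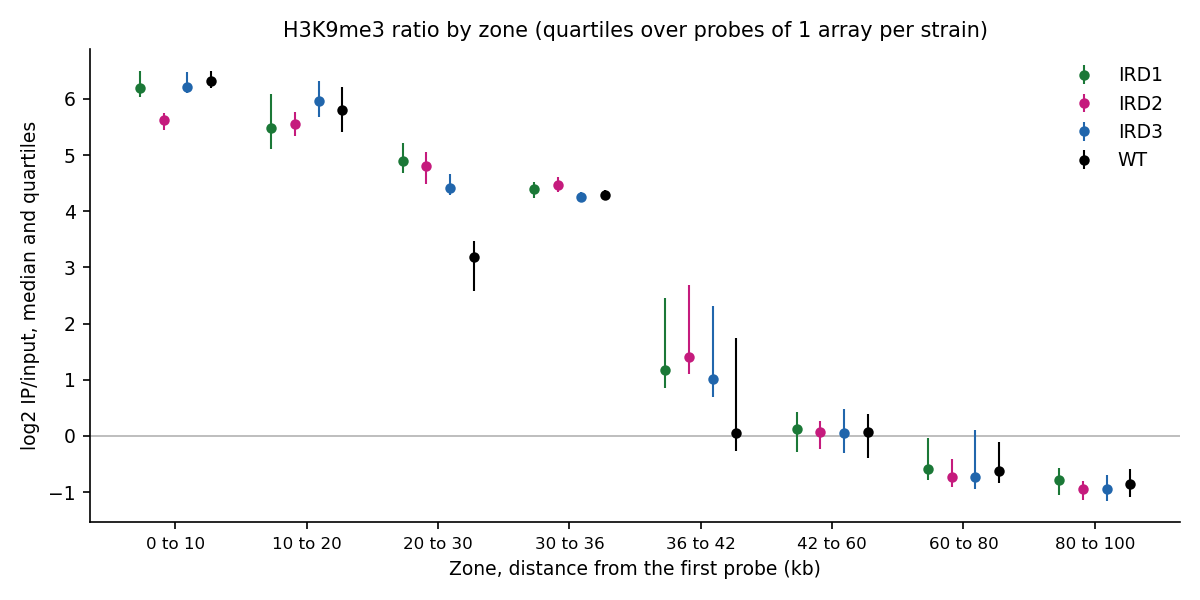
Median H3K9me3 ratio (log2, vertical axis) in 8 zones along the region (distance from the first probe in kb, horizontal axis) in IRD1, IRD2, IRD3 and WT. Points are medians and bars the quartiles over the probes of 1 array. WT lies apart from the IRD strains at 20 to 30 kb (3.19 in WT) and at 36 to 42 kb (0.05 in WT).

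The zone from 20 to 30 kb held the main difference of the outer block. The median ratio was 4.90 in IRD1 (quartiles 4.68 and 5.21), 4.81 in IRD2 (4.49 and 5.05), 4.41 in IRD3 (4.30 and 4.66) and 3.19 in WT (2.59 and 3.46), over 30 probes. The median difference from WT was 1.85 in IRD1, with 29 of 30 probes higher. In IRD2 it was 1.73 and in IRD3 1.5, with 30 of 30 probes higher in each.

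Within that zone, the change was carried by 22 consecutive probes from 21.9 to 28.2 kb. Their ratios ranged between 3.75 and 5.86 for IRD1, 3.96 and 5.36 for IRD2 and 3.77 and 5.03 for IRD3, against 1.95 to 3.48 in WT. The range of no IRD strain overlapped that of WT, but the edges of the stretch were set after the probe values were seen, which favours such a separation. In linear terms the median difference of 2.08 in IRD1 is 4.23-fold, that of 1.89 in IRD2 is 3.71-fold and that of 1.72 in IRD3 is 3.30-fold.

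The dip in WT opened with a pair of low probes and then deepened inward. At 21.9 kb the ratio was 3.75 in IRD1, 3.96 in IRD2, 4.29 in IRD3 and 2.37 in WT. The ratio at 22.5 kb was 5.16 in IRD1, 4.69 in IRD2, 4.40 in IRD3 and 3.48 in WT. At 25.5 kb it was 5.22 in IRD1, 4.97 in IRD2, 4.67 in IRD3 and 2.82 in WT. At 28.2 kb, the lowest WT probe of the outer block, it was 4.01 in IRD1, 4.14 in IRD2, 3.77 in IRD3 and 1.95 in WT. At this last probe of the stretch the gap to WT was still 2.06 for IRD1, 2.19 for IRD2 and 1.83 for IRD3.

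Just outward of the dip the strains lay close together, while inward of it the IRD strains stayed above WT up to about 30 kb. At 20.7 kb the ratio was 4.30 in IRD1, 4.53 in IRD2, 4.25 in IRD3 and 4.15 in WT. At 28.5 kb, the next probe after the lowest one, it was 3.98 in IRD1, 4.37 in IRD2, 4.07 in IRD3 and 3.41 in WT. The window starting at 28.5 kb had a median of 4.84 in IRD1, 5.01 in IRD2, 4.45 in IRD3 and 4.10 in WT. At 30 to 36 kb the median was 4.39 in IRD1, 4.47 in IRD2, 4.26 in IRD3 and 4.30 in WT over 18 probes, with median differences of 0.03 (10 of 18 probes above WT), 0.21 (16 of 18) and -0.03 (8 of 18) for IRD1, IRD2 and IRD3. With loess normalization that of IRD2 turned to -1.20.

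**Figure D3:**
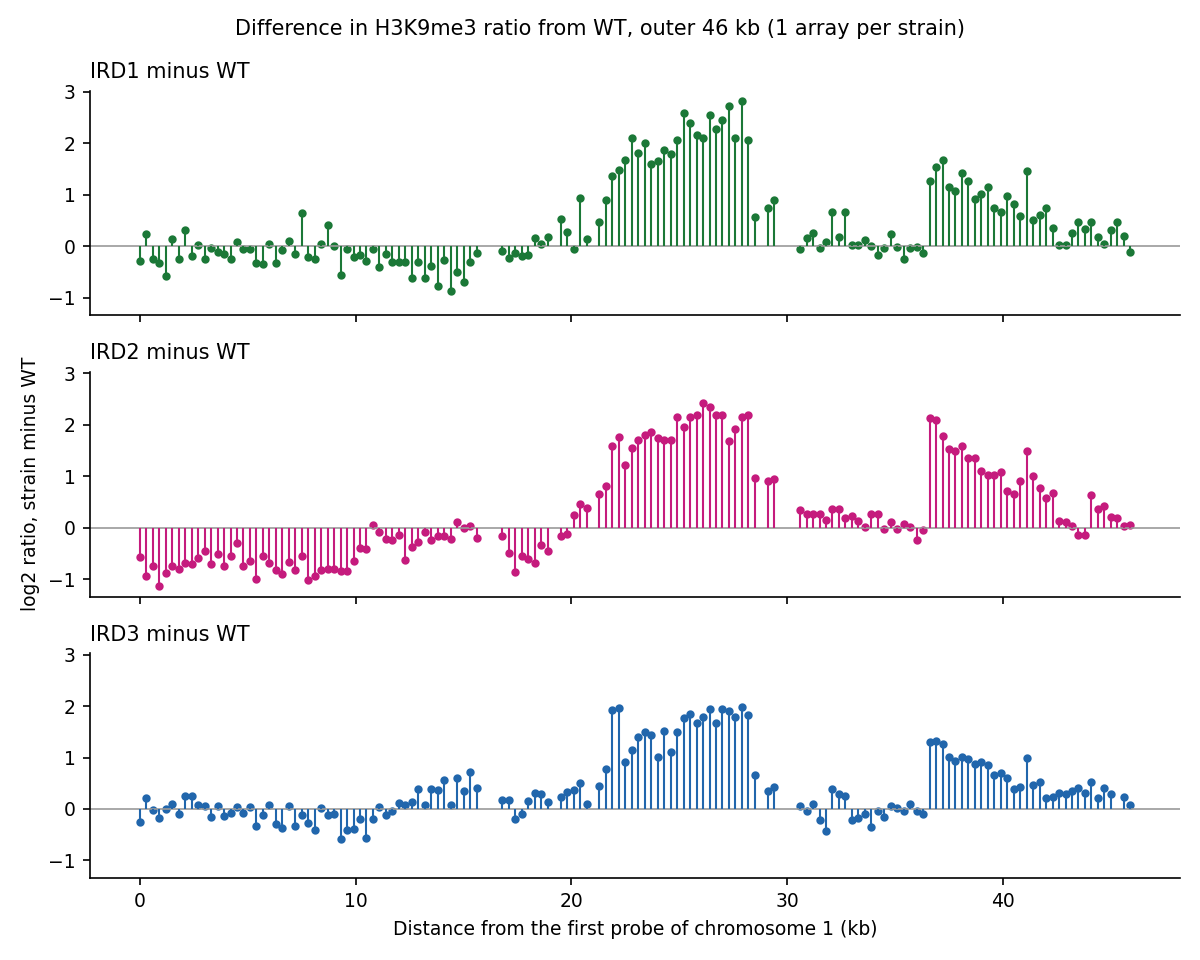
Difference in H3K9me3 ratio (log2, vertical axis) of IRD1, IRD2 and IRD3 from WT at each probe of the outer 46 kb, against the distance from the first probe in kb. Each stem is 1 probe of 1 pair of arrays. Stems point upward between 21.9 and 28.2 kb and again past 36.3 kb in the 3 panels, and IRD2 alone lies below 0 at every probe of the outermost 10 kb.

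The input was lower in the IRD strains over the same 22 probes. The difference in log2 input was -0.45 for IRD1, -0.42 for IRD2 and -0.41 for IRD3, which leaves 0.73, 0.75 and 0.75 of the WT signal. It was below WT at 21 of the 22 probes for IRD1, at all 22 for IRD2 and at 20 for IRD3. The exceptions in IRD3 were the outermost pair, at 21.9 and 22.2 kb, where input was 0.43 higher than in WT. At 27.6 kb, where the gap in input was widest in each strain, log2 input was -0.38 in IRD1, -0.12 in IRD2, -0.41 in IRD3 and 0.79 in WT. Part of the higher ratio therefore lay in its denominator. The immunoprecipitated signal by itself was still 1.63 higher for IRD1, 1.49 higher for IRD2 and 1.2 higher for IRD3, at 22 of 22 probes each. What the lower input stands for, such as fewer copies of this DNA, was not tested.

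Probes with names lacking f or m were few here, with none of them past 23.1 kb, so they bear only on the outer part of the stretch. The 3 probes of the stretch without f or m in their names had median differences of 1.82 for IRD1, 1.59 for IRD2 and 1.41 for IRD3. The edges of the stretch were set after the values of these probes were seen, so they are no separate check. Loess normalization lowered the difference over the 22 probes to 1.69 for IRD1, 0.24 for IRD2 and 0.94 for IRD3. Loess forces the ratio to be level across signal intensity, and why it moved the strains by different amounts was not tested.

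**Figure D4:**
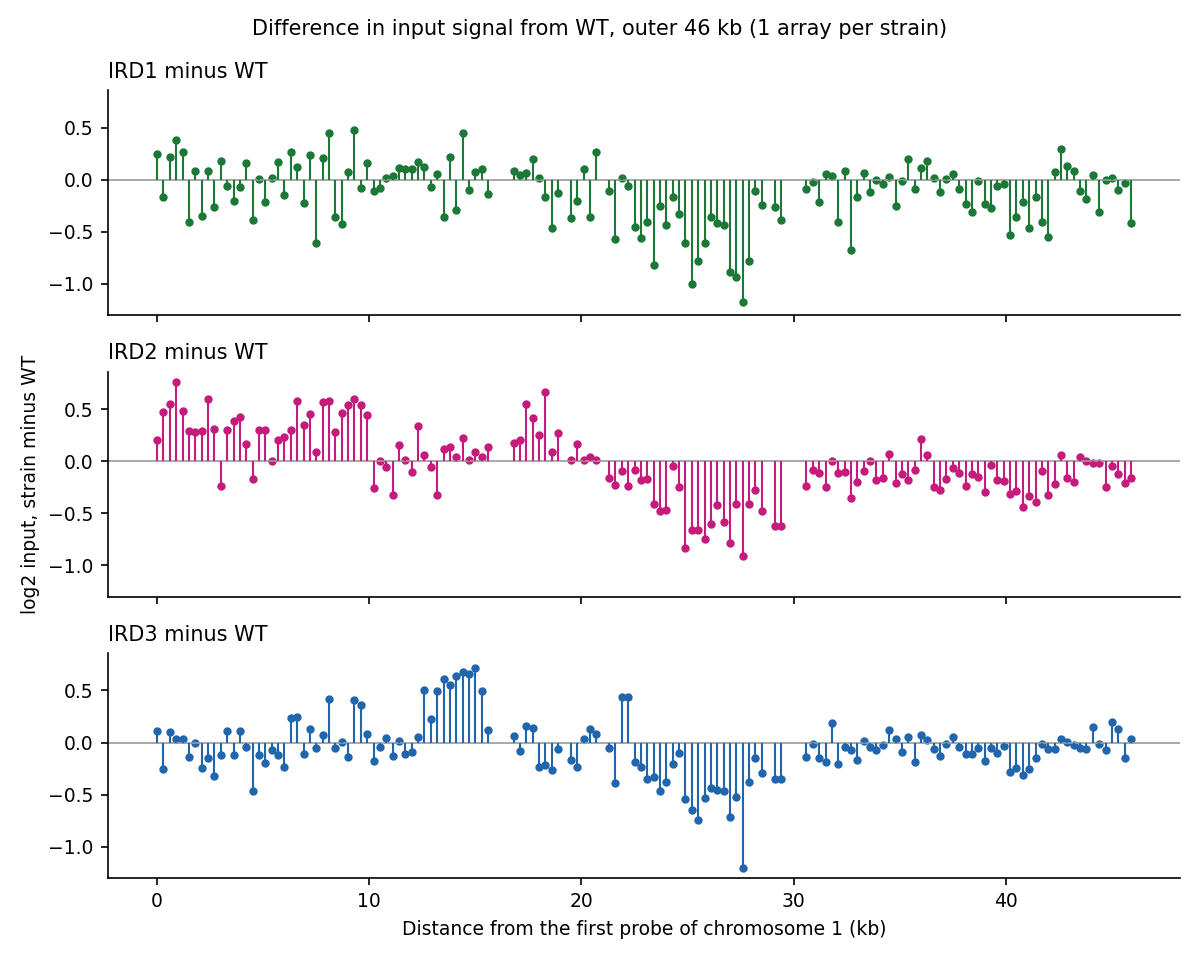
Difference in log2 input signal of IRD1, IRD2 and IRD3 from WT (vertical axis) at each probe of the outer 46 kb, against the distance from the first probe in kb. Each stem is 1 probe of 1 pair of arrays. Input lies below WT between about 23 and 28 kb in the 3 panels, above WT over the outermost 10 kb in IRD2, and above WT at 12.6 to 15.3 kb in IRD3.

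The inner border of the block lay at the same probe in all strains. At 36 kb the ratio was 4.14 in IRD1, 3.93 in IRD2, 4.11 in IRD3 and 4.16 in WT. At 36.3 kb it was 3.90 in IRD1, 3.98 in IRD2, 3.92 in IRD3 and 4.02 in WT. The next probe, at 36.6 kb, read 1.18 in IRD1, 2.03 in IRD2, 1.21 in IRD3 and -0.09 in WT. The step between these neighbouring probes was -2.72 in IRD1, -1.95 in IRD2, -2.72 in IRD3 and -4.11 in WT. The place of the drop was thus shared, and its depth was not.

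Past the border the IRD strains kept a low shelf. Over the 12 probes from 36.6 to 39.9 kb the ratio ranged between 0.64 and 1.32 for IRD1 (median 1.01), 0.95 and 2.03 for IRD2 (median 1.19) and 0.59 and 1.21 for IRD3 (median 0.71). In WT it ranged between -0.55 and 0.49, with a median of -0.24, so no IRD value overlapped WT. The edges of the shelf were also set after the probe values were seen, which favours such a separation. The median difference was 1.15 for IRD1, 1.42 for IRD2 and 0.95 for IRD3, or 2.22-fold, 2.67-fold and 1.93-fold, at 12 of 12 probes each. IRD2 was also above IRD3 at all 12 probes, by a median of 0.50.

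The shelf was not level, and its gap to WT was smaller at its inner than at its outer end. At 36.6 kb the difference was 1.28 for IRD1, 2.13 for IRD2 and 1.30 for IRD3. At 37.2 kb it was 1.68 (IRD1), 1.78 (IRD2) and 1.27 (IRD3), so the gap in IRD1 widened before it narrowed. At 39.9 kb it was 0.67 (IRD1), 1.07 (IRD2) and 0.71 (IRD3). In IRD2 it declined over the first probes, with 2.03 at 36.6 kb, 1.87 at 36.9 kb and 1.24 at 37.2 kb, and then held between 0.95 and 1.21 up to 39.6 kb. In IRD1 the same 3 probes read 1.18, 1.32 and 1.14, and in IRD3 1.21, 1.09 and 0.72. In WT they read -0.09, -0.22 and -0.55.

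Input was slightly lower in the IRD strains over the shelf. The difference in log2 input was -0.07 for IRD1 (3 of 12 probes above WT), -0.18 for IRD2 (0 of 12) and -0.06 for IRD3 (1 of 12). The immunoprecipitated signal exceeded that of WT by 1.05 (IRD1), 1.32 (IRD2) and 0.92 (IRD3). All 12 probes have names ending in f or m, so the shelf has no value from other probes, and a source elsewhere in the genome cannot be told apart from a shelf at this place.

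Just inward of the shelf a narrow peak stood in every strain. At 40.2 kb the ratio was 4.38 in IRD1, 4.12 in IRD2, 4.0 in IRD3 and 3.40 in WT. At 40.5 kb it was 4.49 in IRD1, 4.32 in IRD2, 4.04 in IRD3 and 3.66 in WT. The probe at 40.8 kb lay lower, at 1.96 in IRD1, 2.27 in IRD2, 1.80 in IRD3 and 1.36 in WT. At 41.1 kb the ratio was again 4.32 in IRD1, 4.34 in IRD2, 3.84 in IRD3 and 2.86 in WT.

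The peak was higher in the IRD strains at each of its 4 probes, by a median of 0.91 for IRD1, 0.82 for IRD2 and 0.52 for IRD3. The names of all 4 probes end in f or m, and the stretch was picked after its values were seen. Input at these probes was lower than in WT by a median of 0.41 for IRD1, 0.32 for IRD2 and 0.27 for IRD3 on the log2 scale, so roughly as much of the difference lay in the input as in the immunoprecipitated signal, which was 0.54, 0.47 and 0.28 higher. With loess normalization the IRD2 difference at the peak turned to -0.80. By 42 kb the ratio was back to 0.56 in IRD1, 0.38 in IRD2, 0.02 in IRD3 and -0.19 in WT.

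**Figure D5:**
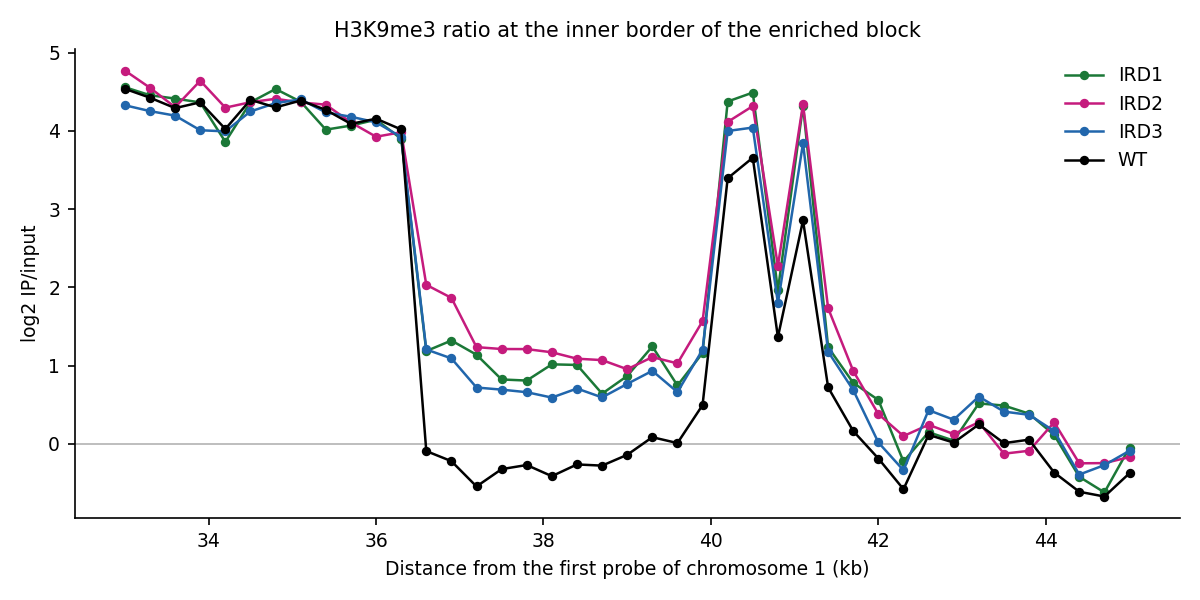
H3K9me3 ratio (log2, vertical axis) between 33 and 45 kb from the first probe in IRD1, IRD2, IRD3 and WT, each point 1 probe of 1 array. The strains overlap up to 36.3 kb, where they read between 3.90 and 4.02, part at 36.6 kb, and share a peak at 40.2 to 41.1 kb.

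The reach of the enriched block depended on the height at which it was read. It was taken as the last probe of an unbroken run, from the outer end, of running medians over 5 probes at or above a threshold. At a threshold of 2 it ended at 36.3 kb in IRD1, 36.6 kb in IRD2, 36.3 kb in IRD3 and 36.3 kb in WT. At a threshold of 1, which the shelf straddles, it ended at 37.8 kb in IRD1, 41.4 kb in IRD2, 36.9 kb in IRD3 and 36.3 kb in WT. At a threshold of 3 it ended at 36.3 kb in each IRD strain and at 25.2 kb in WT, inside the dip. Under loess this contrast with WT was lost at a threshold of 3 but not at a threshold of 2 for IRD1 and IRD3. At a threshold of 3 the run then ended at 21.3 kb in IRD1, 14.4 kb in IRD3 and 20.7 kb in WT, and IRD2 had no run at a threshold of 2 or 3. At a threshold of 2 the run under loess ended at 27.6 kb in IRD3 and 20.7 kb in WT. In IRD1 it stayed within 2 probe steps of 36.3 kb.

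In windows of 1.5 kb with at least 3 probes, 29 of 67 windows in IRD1, 30 of 67 in IRD2, 28 of 66 in IRD3 and 27 of 67 in WT had a median ratio of at least 1. A window was higher when its median exceeded that of WT by at least 1, a 2-fold change. That held for 8 of 67 windows in IRD1, against 0.62% of windows over the whole array, for 8 of 67 in IRD2, against 0.505%, and for 7 of 66 in IRD3, against 0.787%. No window of the region was lower by at least 1 in any strain, where the array as a whole had 0.0608% for IRD1, 0.24% for IRD2 and 0.0726% for IRD3. Under loess the higher windows numbered 4 (IRD1), 3 (IRD2) and 2 (IRD3). The lower ones then numbered 14 in IRD2 and 1 in IRD3.

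The higher windows were mostly shared. Those starting at 21.0, 22.5, 24.0, 25.5, 27.0 and 36 kb were higher in all 3 IRD strains, which share the WT array as their comparison. The windows starting at 37.5 and 39.0 kb were higher in IRD1 and IRD2. The window starting at 61.5 kb was higher in IRD3 only, at 0.48 in IRD3 against -0.57 in WT, but it rested on 3 probes in IRD3 and 5 in WT. With the probes that had a ratio on all 4 arrays, IRD3 had 6 higher windows. With the probes lacking f or m, which are sparse between 16 and 50 kb, no window was higher in any IRD strain.

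The window starting at 25.5 kb had a median of 4.84 in IRD1, 4.96 in IRD2, 4.32 in IRD3 and 2.56 in WT. The window at 27.0 kb gave the largest positive difference in IRD1 and IRD3, with 5.08 in IRD1, 4.40 in IRD2, 4.33 in IRD3 and 2.55 in WT. The largest negative differences in IRD2 lay at the end, where the window at 7.5 kb read 5.39 in IRD2 and 6.27 in WT. Those in IRD1 were smaller, led by the window at 13.5 kb with 4.75 in IRD1 and 5.35 in WT. In IRD3 the largest negative difference was -0.47 at 73.5 kb, in a window with ratios below 0 that rested on 3 probes in IRD3 and 5 in WT.

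A window was gained when it also crossed a ratio of 1. There were 2 gained windows for IRD1 (0.158% over the array), 3 for IRD2 (0.168%) and 1 for IRD3 (0.254%), all at the shelf, and none was lost in any strain (0.0365%, 0.0601% and 0.0121% over the array). The window starting at 36 kb was gained in each, with a median of 1.32 in IRD1, 2.03 in IRD2, 1.21 in IRD3 and -0.09 in WT. It straddles the border, with 2 probes on the plateau and 3 on the shelf. The window at 39.0 kb was gained in IRD1 (1.16) and IRD2 (1.11), against 0.08 in WT, and that at 37.5 kb in IRD2 alone (1.17), against -0.28 in WT. Under loess 0 windows were gained in IRD1, 1 in IRD2 and 0 in IRD3, with 3 lost in IRD2. With the probes lacking f or m none was gained in any strain.

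Inward of 42 kb the strains lay close together. At 42 to 60 kb the median ratio was 0.13 in IRD1, 0.08 in IRD2, 0.06 in IRD3 and 0.08 in WT, near the level of a typical probe. At 60 to 80 kb it was -0.60 in IRD1, -0.73 in IRD2, -0.73 in IRD3 and -0.62 in WT, and at 80 to 100 kb -0.78 in IRD1, -0.95 in IRD2, -0.95 in IRD3 and -0.86 in WT. None of the 9 differences from WT in these zones exceeded 0.14 in size.

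The inner 20 kb was among the stretches with the lowest ratio. Whether ratios this far below 0 stand for less of the mark was not tested. The ranks are among 624 segments of 20 kb on the chromosomes, leaving out segments with few probes. That at 80 to 100 kb ranked 11th from the lowest in IRD1, 15th in IRD2, 7th in IRD3 and 12th in WT. The segment at 60 to 80 kb ranked 22nd in IRD1, 28th in IRD2, 19th in IRD3 and 31st in WT. Over 80 to 100 kb the median log2 input was -0.43 in IRD1, -0.45 in IRD2, -0.42 in IRD3 and -0.37 in WT, and no probe there was dim in either channel.

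Inside this low stretch a broad rise at 67.2 to 70.5 kb came back to about 0 in IRD1, IRD3 and WT. At 69.3 kb the ratio was 0.25 in IRD1, 0.01 in IRD2, 0.66 in IRD3 and 0.12 in WT. At 67.8 kb it was 0.01 in IRD1, -0.58 in IRD2, 0.12 in IRD3 and 0.25 in WT. The neighbouring probe at 70.8 kb read -0.76 in IRD1, -0.85 in IRD2, -0.77 in IRD3 and -0.89 in WT.

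Isolated peaks interrupted the inner region in every strain. Over the 4 probes from 60.6 to 61.5 kb, whose names all end in f or m, the median ratio was 4.24 in IRD1, 4.02 in IRD2, 4.56 in IRD3 and 4.05 in WT. The median difference was 0.13 in IRD1 and -0.03 in IRD2. In IRD3 it was 0.41, with 4 of 4 probes higher, and input there was 0.16 lower on the log2 scale. This peak was about as high as the plateau at 30 to 36 kb.

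A weaker peak at 57.3 to 57.9 kb went the other way. Its 3 probes had a median ratio of 1.04 in IRD1, 1.32 in IRD2, 1.35 in IRD3 and 1.59 in WT, and each probe was lower in each IRD strain. The median difference was -0.55 for IRD1, -0.26 for IRD2 and -0.25 for IRD3. Those of IRD2 and IRD3 did not exceed the SD of single probes given above. With loess normalization the differences shrank to -0.24 for IRD1, -0.09 for IRD2 and -0.02 for IRD3. The names of these 3 probes all end in f or m, and the stretch was picked after its values were seen. A lone probe at 63.0 kb, with a name lacking f or m, read 2.63 in IRD2, 2.69 in IRD3 and 2.66 in WT between neighbours below 0, and had no ratio in IRD1.

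The other ends of chromosomes 1 and 2 were read at distances from their own outermost probe. These comparisons share the WT array, and much of this DNA is repeated among the ends. At 20 to 30 kb from the right end of chromosome 1 the median ratio was 4.77 in IRD1, 4.53 in IRD2, 4.97 in IRD3 and 4.40 in WT. The next zone at that end, 30 to 36 kb, read 4.20 in IRD1, 4.29 in IRD2, 4.68 in IRD3 and 3.07 in WT, so WT was also the lowest of the 4 strains there. At 20 to 30 kb from the left end of chromosome 2 the ratio was 0.07 in IRD1, 0.09 in IRD2, -0.02 in IRD3 and -0.09 in WT, over at most 8 probes. From the right end of chromosome 2 it was 0.13 in IRD1, -0.19 in IRD2, 0.93 in IRD3 and -0.32 in WT.

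Levels like those at 20 to 30 kb here lay at another distance on chromosome 2, in a zone picked out after its values were seen. At 0 to 10 kb from its left end the median ratio was 4.82 in IRD1, 4.71 in IRD2, 4.49 in IRD3 and 3.14 in WT, where the zone here read 4.90, 4.81, 4.41 and 3.19. Whether the probes of both places read the same DNA was not tested.

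At 36 to 42 kb the ends of chromosome 1 both had higher medians in the IRD strains, and at the ends of chromosome 2 the median differences were between -0.31 and 0.28. The ratio here was 1.17 in IRD1, 1.40 in IRD2, 1.01 in IRD3 and 0.05 in WT. At the right end of chromosome 1 it was 3.75 in IRD1, 4.13 in IRD2, 4.72 in IRD3 and 0.70 in WT. Levels near those of the zone here were also found at 10 to 20 kb from the right end of chromosome 2, at 1.02 in IRD1, 1.21 in IRD2, 1.23 in IRD3 and 0.18 in WT. That zone too was picked out after its values were seen, and whether its probes read the same DNA was not tested. No test of a difference between the ends was possible with 1 array per strain.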

How the data were processed

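Per the labels' protocols, DNA precipitated with an antibody to H3K9me3 was labelled with Cy5 and whole-cell extract DNA with Cy3, and both were hybridised to a 2-colour array. Agilent Feature Extraction 12.0.3.1 made the intensity values, subtracted background and scaled the dyes linearly, per the file headers. For IRD1 and IRD3 the values are deposited with 3 significant digits. The series' deposited value table holds the linear ratio of red over green, not centred, with medians over genomic probes of 1.02 in IRD1, 1.09 in IRD2, 1.04 in IRD3 and 1.08 in WT, and it differs from the arrays' own signals by at most 0.0133 on the log2 scale.

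Log2 ratios were computed from the processed signals, and the median over an array's genomic probes was subtracted. Loess was left to an alternative. The 1417 control spots and outlier spots (7.33% of probes in IRD1, 0.54% in IRD2, 4.28% in IRD3 and 1.13% in WT) were left out. Input is log2 of the green signal, centred likewise. Median ratios of mitochondrial probes were -1.74 in IRD1, -1.98 in IRD2, -2.20 in IRD3 and -1.66 in WT. With 1 array per strain the precision of a difference is unknown, and quartiles and SDs are over probes.

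The region, its zone borders, its intervals and the window rules were chosen with earlier results of these data known, and the intervals after the probe values were seen. Named windows were the 5 largest rises and 5 largest falls per IRD strain, the 3 highest per array, all windows gained or lost and the probes at the border, of which the text gives those that matter. On simulated data the calling of windows was tested first. Alternatives were normexp (offset 50), the value table, loess, centring on the rest of chromosome 1, outlier spots kept, probes without f or m, probes with dim immunoprecipitated signal or weak input (log2 under -3) left out, means for medians, running medians of 3 or 9 probes, windows of 3 kb and, chosen after seeing the data, probes with a ratio on all 4 arrays. The deposited files used hold spot medians and not means, so normexp ran on medians. Python 3.11.15, R 4.3.3 and limma 3.58.1 were used.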

Additional observations from a re-analysis of the deposited data

Results flagged for a closer look

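Of the data outside the region, the 129 probes of 9 contigs named pNSU carried a high H3K9me3 ratio. Their median was 4.54 in IRD1, 4.26 in IRD2, 4.85 in IRD3 and 3.88 in WT, against medians of -1.74, -1.98, -2.20 and -1.66 over the mitochondrial probes of the same arrays, DNA that is not wrapped on histones. The median difference from WT was 0.48 in IRD1 (92 of 125 probes higher), 0.07 in IRD2 (65 of 126) and 0.55 in IRD3 (110 of 126). The names of all 129 probes end in f or m, and the sources used here do not place these contigs on a chromosome.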

How the results depend on the processing

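Of 448 alternative values for the zones, the reach and the windows, 55 moved past the limits set (the SD of single probes for a zone, 2 probe steps for the reach and 1.5 times for a count). The limit for a zone is wide for a median over many probes, so staying within it shows little. Loess moved the most values, followed by the probes lacking f or m. Under loess the zone differences became -2.62 (IRD2) and -0.58 (IRD3) at 0 to 10 kb, -1.25 (IRD2) and -0.50 (IRD3) at 10 to 20 kb, 1.41 (IRD1), 0.13 (IRD2) and 0.76 (IRD3) at 20 to 30 kb, -1.20 (IRD2) and -0.44 (IRD3) at 30 to 36 kb and 0.59 (IRD3) at 36 to 42 kb. Among these the sign turned at 10 to 20 kb in IRD3 and at 30 to 36 kb in IRD2. The reach under loess was 36.3 kb (IRD1) and 0 kb (IRD2) at a threshold of 1, 27.6 kb (IRD3) and 20.7 kb (WT) at 2, and 21.3 kb (IRD1), 14.4 kb (IRD3) and 20.7 kb (WT) at 3, and IRD2 had no run at 2 or 3. Loess left 0, 1 and 0 windows gained and 4, 3 and 2 higher in IRD1, IRD2 and IRD3, with 3 lost in IRD2, 14 lower in IRD2 and 1 lower in IRD3.

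With probes lacking f or m, of which there are none between 23.1 kb and the inner edge of the repeats, the reach was 23.1 kb in every strain and at every threshold except 22.8 kb in WT at 3. No window was then gained (0) or higher (0) in any IRD strain, and the IRD1 difference at 10 to 20 kb became -0.55. Normexp gave 1.41 in IRD2 at 36 to 42 kb, a reach of 36.9 kb in IRD1 at a threshold of 1 and 22.2 kb in WT at 3, 1 window gained in IRD1 and 2 lower in IRD2. A running median of 3 probes gave 21.6 kb in WT at a threshold of 3. Windows of 3 kb gave 1 gained in IRD1, and 4, 5 and 4 higher in IRD1, IRD2 and IRD3. Loess by construction forces ratios to be level, and unmarked probes are missing over much of the block. The cause of each shift was not tested.

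No paired analysis was possible because each strain has 1 array, and no array could be left out. Repeated DNA limits how far signals of the outer 50 kb can be placed, and past 23.1 kb no unmarked probe bears on the block.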
